A study of Mus musculus with 4 samples.

Results

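The genes described here encode the receptors through which T cells sense IL-12, IL-18 and IL-1, together with the transcription factor and the inhibitory kinase relative closest to them. They are *Il12rb1*, *Il12rb2*, *Il18r1*, *Il18rap*, *Il1r1*, *Il1r2*, *Il1rl1*, *Stat4* and *Irak3*, 9 genes in all, of which 8 are among the 18193 that the arrays name. A gene was read by every probe set (a group of short probes for one transcript) whose platform symbol was exactly that gene, and the brightest by its mean over the 4 arrays stands for it, with any other probe set given beside it. This gave 11 probe sets for 8 of the 9 genes, 5 genes with 1 probe set and 3 with 2. No probe set carried the symbol *Il1rl1* alone in the annotation used, so the IL-33 receptor chain ST2 was not analysed here.

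The samples were TFH cells sorted from spleen 8 days into an infection with LCMV Armstrong, a virus strain that is cleared after an acute infection. Of the arrays, 2 came from Rictor-null mice (*Rictor* fl/fl with the *Cd4*-Cre transgene, called Rictor-/- in the study) and 2 from wildtype mice, which were *Rictor* fl/fl littermates (WT). Both groups therefore carried the floxed alleles and the infection, and mice of the study were infected at 6 to 10 weeks of age. Cre under the *Cd4* promoter acts from the thymus onward in CD4 and CD8 T cells, so that the TFH cells developed in mice whose other T cells lacked Rictor too. Each array held RNA pooled from several mice. How many mice is unsettled, since the series' design text has 5 or more per sample and a legend of the study has 6 Rictor-/- and 4 WT mice. The labels call the arrays of a group biological replicates, and with 2 pools in a group p-values reflect only how far pools differ, not how far mice differ. Those from limma also draw on the spread of the other genes. *Rictor*, which encodes the subunit that defines mTORC2, had 5 probe sets, of which only the brightest was read. This probe set was at an intensity of 334 and 303 in WT and 267 and 279 in Rictor-/- TFH cells (log2 fold change -0.21, limma adjusted p = 0.0366). Since the sources used here do not say which exons it reads, it is no check of the deletion. The study itself reports *Rictor* mRNA as undetectable in TFH cells sorted from Rictor-/- mice. In stimulated CD4 T cells of these mice, it found no induction of mTORC2 activity. The arrays correlated at 0.998 within a group and at 0.993 to 0.994 between groups. None of the 11 measured T cell and TFH markers lay under the median of all probe sets on all 4 arrays. *Cd4*, *Cxcr5*, *Bcl6* and *Icos* were among these markers. Of other lists, 6 of 7 B cell, 7 of 9 mast cell and basophil and 5 of 9 neutrophil markers did. Only 3 of 7 dendritic cell, 2 of 12 monocyte and macrophage, 2 of 7 NK and 2 of 7 regulatory T cell markers did. The counts therefore do not show a sort free of those cells.

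IL-12 is made by dendritic cells and macrophages and binds a receptor of the chains IL-12Rβ1 and IL-12Rβ2, which passes its signal through JAK2 and TYK2 to STAT4. IL-18 and IL-1 bind receptors of another family, each with a binding chain and an accessory chain, whose cytoplasmic TIR domains recruit MyD88 and the IRAK kinases and lead to NF-κB and p38. In CD4 T cells IL-12 and IL-18 together promote IFN-γ production and the TH1 fate, the alternative to the TFH fate in viral infection. The second family has brakes of its own. IL-1R2 binds IL-1 but lacks the TIR domain and acts as a decoy, and IRAK-M, encoded by *Irak3*, is a kinase-like protein that dampens IRAK signaling.

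Of the 8 genes read, 5 were higher in Rictor-/- than in WT TFH cells, and the 2 largest rises belonged to the brakes of the IL-1 pathway. *Irak3* rose by 1.39 and *Il1r2* by 1.10 on the log2(intensity + 16) scale. The IL-18 accessory chain gene *Il18rap* rose by 0.54 and *Stat4* by 0.34, and *Il12rb2*, dim on every array, by 0.17. The binding chain genes *Il18r1* and *Il1r1* and the shared IL-12 receptor chain gene *Il12rb1* did not pass the test. Calls rest on an adjusted p under 0.05 from limma over 18193 genes, by which 12.5% of all genes were higher, 7.18% lower and 19.7% either. None of the 8 genes was lower by limma, where 0 also had an unadjusted p under 0.05 in that direction. By the methods' t-test without adjustment, one-tailed in each gene's observed direction, 1 was lower. *Irak3* and *Il1r2* were also past 1.5-fold on the log2 scale, as were 1.25% of all genes among the higher and 0.357% among the lower. In 6 of the 8 both Rictor-/- arrays lay above both WT arrays and in 2 below them, against 30.6% and 24.9% of all genes, or 55.5% in either direction. The median log2 fold change was 0.25 over the 8 genes and 0.0068 over all genes. The set was put together with results of these arrays known, so its share of calls is a description and not evidence about receptors as a class.

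**Figure D1:**
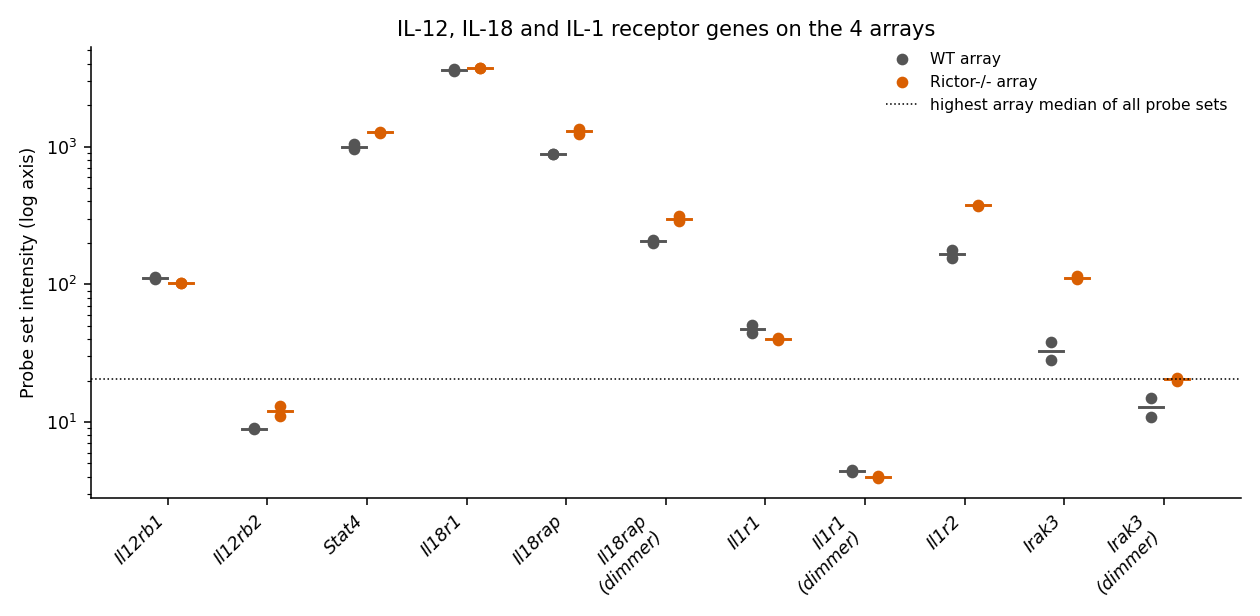
Intensities (y axis, logarithmic) of the 11 probe sets in WT (grey) and Rictor-/- (orange) TFH cells, where each point is an array, each bar the mean of 2 arrays, and the dotted line the highest array median of all probe sets (20.4). The orange points of *Il1r2* and *Irak3* stand clear above the grey ones, those of *Il18r1* lie close to them, and heights are not comparable between genes because probe sets differ in brightness.

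Of the IL-12 receptor chains, *Il12rb1*, which encodes the chain shared with the IL-23 receptor, was at intensities of 114 and 109 in WT and 103 and 101 in Rictor-/- TFH cells. Both Rictor-/- arrays lay below both WT arrays, by little. The log2 fold change was -0.11 (standard error, SE, 0.07, 95% interval -0.27 to 0.05) and did not pass (limma adjusted p = 0.362). *Il12rb2* encodes the signaling chain that T cells gain on the way to TH1. It was at 9.05 and 8.87 in WT and 11.1 and 13.03 in Rictor-/- TFH cells, under the median of all probe sets on each array (20.0 to 20.4, the array median from here on). The log2 fold change was 0.17 (SE 0.05, limma adjusted p = 0.0298), and 0.38 with 1 in place of 16 added to the intensities. The call was lost without Rictor-/- replicate 2 (adjusted p = 0.252), without WT replicate 1 (adjusted p = 0.14) and without WT replicate 2 (adjusted p = 0.169), all from limma.

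*Stat4*, the transcription factor that IL-12 activates, was at 1043 and 958 in WT and 1256 and 1286 in Rictor-/- TFH cells. The groups did not overlap, and the means were 1001 ± 60.6 and 1271 ± 21.4 (SD, n = 2 each). The log2 fold change was 0.34 (SE 0.05, limma adjusted p = 0.000414). By limma 7.18% of all genes were lower and 12.5% higher. The list of IL-12 family ligands, receptor chains and JAK-STAT partners had 9 measured genes, of which 5 fell, 4 did not pass and 0 were higher by limma (0 also at an unadjusted p under 0.05). Those that fell were *Jak2* at -0.24 and *Tyk2* at -0.20, the kinases bound to the IL-12 receptor, *Stat3* at -0.29, *Il6st*, which encodes the gp130 chain of the IL-6 and IL-27 receptors, at -0.33, and *Il27ra* at -0.26 (log2 fold changes, adjusted p = 0.00267, 0.0233, 0.00255, 0.00265 and 0.0119 from limma). *Jak2* was at 797 and 799.6 in WT against 669.8 and 674 in Rictor-/- TFH cells. The cytokine genes *Il12a*, *Il12b* and *Il23a* lay below the array median on all 4 arrays. Within each array, the log2 value of *Stat4* minus that of *Stat3* was 0.57 and 0.44 in WT and 1.19 and 1.09 in Rictor-/- TFH cells, a shift of 0.63. Only the shift is of use in such a balance, because probe sets differ in brightness. An exact two-sided permutation test over 2 against 2 arrays cannot go below p = 0.333, the value found for each of the 6 balances of this kind computed.

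Of the IL-18 receptor chain genes, 1 rose. *Il18r1*, the binding chain, was at 3544 and 3648 in WT and 3729 and 3732 in Rictor-/- TFH cells, bright on all 4 arrays and slightly above WT in both Rictor-/- arrays. Its log2 fold change of 0.05 (SE 0.04, 95% interval -0.03 to 0.14) did not pass (limma adjusted p = 0.42). *Il18rap*, the accessory chain that IL-18 signaling requires, was at 878 and 888 in WT and 1236 and 1340.1 in Rictor-/- TFH cells. Both Rictor-/- arrays stood above both WT arrays, with a log2 fold change of 0.54 (SE 0.05, limma adjusted p = 1.64e-05). The second probe set of *Il18rap* gave 200.5 and 209 in WT and 289 and 312 in Rictor-/- TFH cells, a log2 fold change of 0.52 (adjusted p = 0.000776 from limma over all probe sets, of which 7.8% were higher and 4.91% lower). The log2 value of *Il18rap* minus that of *Il18r1* was -1.99 and -2.02 in WT and -1.58 and -1.47 in Rictor-/- TFH cells, a shift of 0.48 between the groups. The cytokine gene *Il18* was higher as well, at 74.5 and 75.5 in WT and 127 and 145 in Rictor-/- TFH cells, a log2 fold change of 0.74 (limma adjusted p = 5.06e-05). *Il18bp*, which encodes the soluble protein that traps IL-18, was at 34.5 and 44.3 against 58.4 and 47.2 and did not pass (limma adjusted p = 0.0625).

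Among the IL-1 receptors, the decoy was higher and the signaling chain did not pass. *Il1r2* was at 178 and 156 in WT and 373 and 379 in Rictor-/- TFH cells, so that both Rictor-/- arrays stood far above both WT arrays. The means were 167 ± 15.9 and 376 ± 3.65 (SD, n = 2 each), a 2.25-fold ratio of linear means. The log2 fold change was 1.10 (SE 0.07, limma adjusted p = 7.66e-07). By size of change *Il1r2* had rank 33 among 18193 genes, and counted from the largest rise it had rank 26. *Il1r1*, the chain that signals after binding IL-1, was at 44.5 and 50.3 in WT and 39.4 and 40.5 in Rictor-/- TFH cells, the lower values in both Rictor-/- arrays. Its log2 fold change of -0.18 (SE 0.09, 95% interval -0.37 to 0.01) did not pass (limma adjusted p = 0.191). Its second probe set lay between 3.95 and 4.46, below the median on all 4 arrays. The log2 value of *Il1r2* minus that of *Il1r1* was 1.68 and 1.37 in WT and 2.81 and 2.80 in Rictor-/- TFH cells, a shift of 1.28. Of the 5 other chains of the family, none passed by limma in either direction, where 19.7% of all genes did. An unadjusted p under 0.05 was found for 1 of them, *Il1rl2*, a chain of the IL-36 receptor. It was at 129.8 and 136 against 112 and 114 (limma adjusted p = 0.0665). The accessory chain gene *Il1rap* had a log2 fold change of 0.12 and *Sigirr*, which encodes an inhibitory receptor of the family, one of 0.09. *Il1rapl1* and *Il1rapl2* lay below the array median on all 4 arrays.

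Ligands of the IL-1 family were mostly dim. Of 10 measured ligand, antagonist and processing genes, 2 were higher and 8 did not pass, where 12.5% of all genes were higher. Of the 10, 6 lay below the array median on all 4 arrays, *Il1a*, *Il33*, *Il1f6* and the antagonist gene *Il1rn* among them. *Il1b* was at 36.5 and 40.3 in WT and 34.1 and 29.5 in Rictor-/- TFH cells and did not pass (limma adjusted p = 0.169). Beside *Il18*, the higher gene was *Casp1*, which encodes the protease that matures IL-1β and IL-18, at 623 and 642 against 771 and 784 (log2 fold change 0.29, limma adjusted p = 0.000927).

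*Irak3* had the largest change of the set and rank 12 by size among all 18193 genes. It was at 28.0 and 37.8 in WT and 114 and 109.5 in Rictor-/- TFH cells, means of 32.9 ± 6.92 and 112 ± 3.23 (SD, n = 2 each) and a 3.40-fold ratio of linear means. The WT arrays differed more from each other than the Rictor-/- arrays did, and the groups did not overlap. The log2 fold change was 1.39 (SE 0.10, limma adjusted p = 2.44e-06). Its second probe set was dimmer, at 14.9 and 10.8 in WT and 21.0 and 20.0 in Rictor-/- TFH cells, around the array median. It rose by 0.34 on the log2 scale (adjusted p = 0.0161 from limma over all probe sets). With the mean of both probe sets the log2 fold change of *Irak3* was 0.87, and with 1 in place of 16 added to the intensities it was 1.75.

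The other measured IRAK genes did not pass. *Irak1* had a log2 fold change of 0.03 and *Irak2* one of -0.03 (limma adjusted p = 0.839 and 0.828). The log2 value of *Irak3* minus that of *Irak1* was -2.99 and -2.63 in WT and -1.46 and -1.42 in Rictor-/- TFH cells, a shift of 1.37. Of 15 measured genes of the MyD88, IRAK and TRAF6 step, 1 was higher, 3 were lower and 11 did not pass, against 12.5% higher and 7.18% lower of all genes. The higher gene was *Irak1bp1*, which encodes a protein that binds IRAK1, at 30.2 and 31.6 against 43.1 and 48.7 (log2 fold change 0.40, limma adjusted p = 0.00483). The 3 lower genes were *Peli1*, *Tab2* and *Ube2v1*, parts of the ubiquitin step between IRAKs and NF-κB, with log2 fold changes from -0.17 to -0.16. *Myd88*, the adaptor itself, was at 658 and 620.1 against 553 and 584 and missed the threshold (limma adjusted p = 0.0511).

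**Figure D2:**
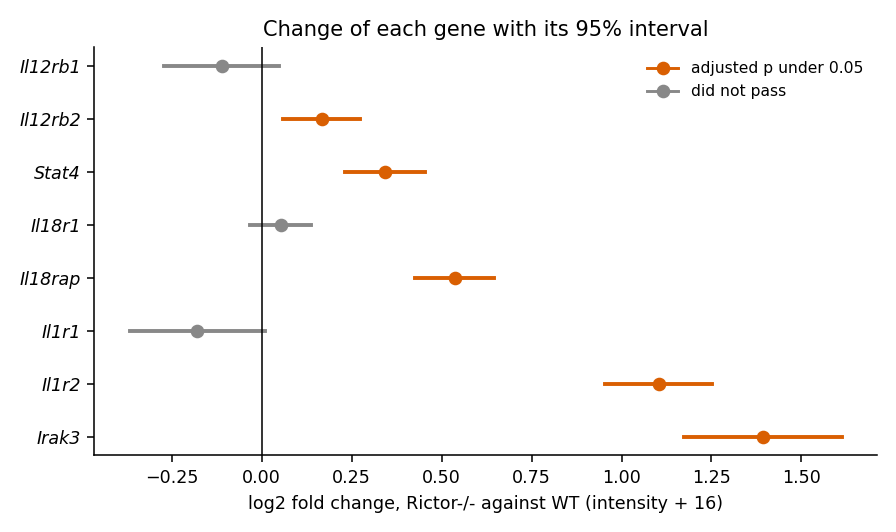
Log2 fold change of each gene's brightest probe set, Rictor-/- against WT TFH cells (x axis, log2 of intensity + 16), with its 95% interval from limma as a bar. Orange marks genes past the 0.05 threshold, with *Irak3* at 1.39 and *Il1r2* at 1.10, and the grey intervals of *Il12rb1*, *Il18r1* and *Il1r1* cross 0.

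Of the 9 genes, 5 lie side by side on mouse chromosome 1, in the order *Il1r2*, *Il1r1*, *Il1rl1*, *Il18r1* and *Il18rap*, with *Il1rl2* between *Il1r1* and *Il1rl1* (RefSeq, GRCm38.p6). *Stat4* is on chromosome 1 too, apart from this run. The 2 rises of the run stood at its 2 ends, and the measured genes between them did not pass. Before the run, *Map4k4*, which encodes a kinase and is the measured gene next before *Il1r2*, was at 487 and 492 in WT and 438 and 399 in Rictor-/- TFH cells, a log2 fold change of -0.22 (limma adjusted p = 0.0167). *Rnf149*, which encodes a ubiquitin ligase, was lower too (log2 fold change -0.46, limma adjusted p = 6.65e-05). The 4 measured genes after *Il18rap* lay below the array median on all 4 arrays. The changes of this stretch therefore did not share 1 direction.

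**Figure D3:**
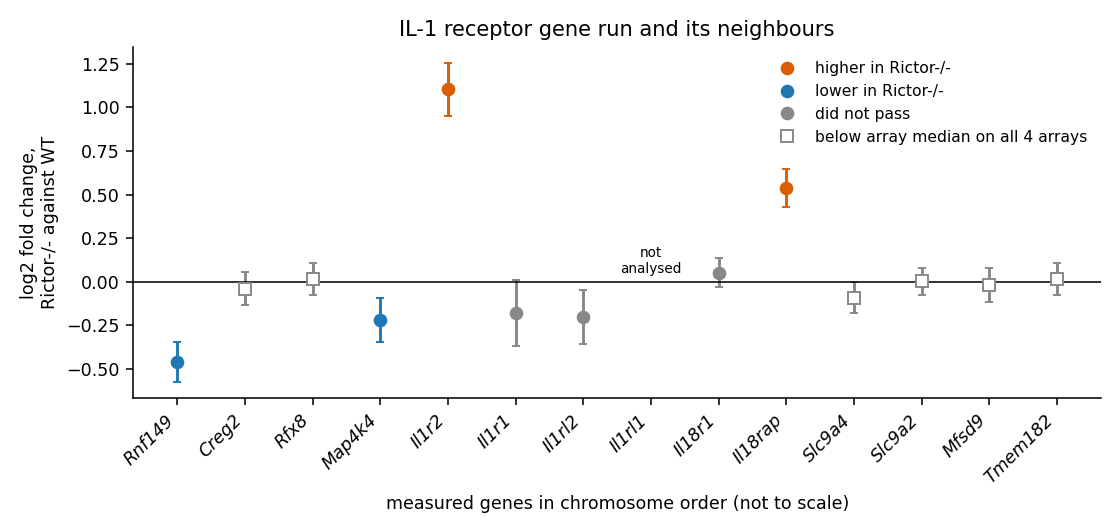
Log2 fold change with its 95% interval (y axis) of the IL-1 receptor gene run and 4 measured genes on each side, in chromosome order and not to scale (x axis). *Il1r2* at 1.10 and *Il18rap* at 0.54 stand out at the ends of the run, *Il1rl1* was not analysed, and open squares are genes below the array median on all 4 arrays.

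Promoter windows of RefSeq (GRCm38.p6, from 250 bases before to 50 bases after a start site, sense strand) were found for 8 of the 9 genes and not for *Il12rb1*. Of them, 4 are printed because they belong to the 2 largest rises and to the 2 IL-18 receptor chains, and capitals mark matches of any of the 6 short motifs searched. *Irak3* has 2 windows and *Il18r1* has 3, and the ones printed are those with a match.
Il1r2, chr1:40085843-40086142, plus strand: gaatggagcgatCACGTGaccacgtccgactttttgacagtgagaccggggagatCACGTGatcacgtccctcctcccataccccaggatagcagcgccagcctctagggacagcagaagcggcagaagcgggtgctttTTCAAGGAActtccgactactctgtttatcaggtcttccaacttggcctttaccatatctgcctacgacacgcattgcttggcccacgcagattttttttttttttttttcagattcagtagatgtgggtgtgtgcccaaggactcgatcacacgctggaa
Irak3, chr10:120201548-120201847, minus strand: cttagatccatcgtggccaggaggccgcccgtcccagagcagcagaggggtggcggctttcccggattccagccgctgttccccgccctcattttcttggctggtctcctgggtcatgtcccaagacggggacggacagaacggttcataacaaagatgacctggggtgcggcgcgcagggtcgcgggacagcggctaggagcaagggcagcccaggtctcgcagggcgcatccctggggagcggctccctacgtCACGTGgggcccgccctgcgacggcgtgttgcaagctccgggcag
Il18rap, chr1:40515112-40515411, plus strand: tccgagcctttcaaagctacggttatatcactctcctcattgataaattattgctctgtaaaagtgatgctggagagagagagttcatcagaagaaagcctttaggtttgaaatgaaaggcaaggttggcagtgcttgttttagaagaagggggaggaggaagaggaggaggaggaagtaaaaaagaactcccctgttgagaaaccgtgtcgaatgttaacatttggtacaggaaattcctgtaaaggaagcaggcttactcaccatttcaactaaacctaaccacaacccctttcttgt
Il18r1, chr1:40465756-40466055, plus strand: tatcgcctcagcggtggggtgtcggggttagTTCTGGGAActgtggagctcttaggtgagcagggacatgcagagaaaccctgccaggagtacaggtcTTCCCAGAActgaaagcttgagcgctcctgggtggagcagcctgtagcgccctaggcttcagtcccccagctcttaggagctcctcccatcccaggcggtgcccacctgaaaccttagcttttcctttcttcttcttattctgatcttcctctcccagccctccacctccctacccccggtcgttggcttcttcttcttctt

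The motifs, read on both strands, were the E-box CACGTG bound by basic helix-loop-helix factors, the AP-1 site TGANTCA, the STAT site TTCNNNGAA, the NF-κB site GGGNNTTCC, the T-box site GGTGTGA and the forkhead site GTAAACA. The E-box was added after the start of the *Il1r2* sequence had been read, so its match there is no test. *Il1r2* held the E-box at 2 places (first base counted), 238 and 195 bases before the start site, and a STAT site 111 bases before it. Of all 32851 windows in the table, 7.15% held the E-box, 0.594% held it at 2 places or more, and 8.3% held the STAT site. *Irak3* held the E-box once, beginning at base 6 with the start base as 1, in the printed window and none of the 6 motifs in the other. *Il18rap* held none of the 6, while *Il18r1* held the STAT site at 2 places (219 and 152 bases before the start site), as did 0.457% of all windows. *Stat4* held none, and *Il12rb2* held the STAT site and the NF-κB site once each. Such letters describe the windows and do not show that a factor binds there.

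Downstream of the receptors, the lists moved in both directions, where 12.5% of all genes were higher and 7.18% lower by limma. Of 16 measured genes of the NF-κB and p38 arm, 4 were higher, 5 were lower and 7 did not pass, with a median log2 fold change of -0.10. The largest change was a fall of *Tnfaip3*, which encodes the NF-κB brake A20, from 1711 and 1726 in WT to 1208 and 1285 in Rictor-/- TFH cells (log2 fold change -0.46, limma adjusted p = 2.7e-05). *Nfkbiz*, which encodes a nuclear IκB protein, and *Map2k3*, a kinase gene of the p38 arm, were both at -0.24. *Rela* and *Relb*, subunits of NF-κB, were at -0.27 and -0.28, and *Nfkbia*, which encodes the inhibitor IκBα, was higher by a log2 fold change of 0.13. Of 19 genes known to respond to STAT4, IL-12 or IL-18, 8 were higher, 2 were lower and 9 did not pass, with a median of 0.05 over the 19. The chemokine genes *Ccl3*, *Ccl4* and *Ccl5* were at 1.61, 1.27 and 0.39, the perforin gene *Prf1* at 0.71, *Gzmb* at 0.64, *Gadd45g*, which acts in the p38 arm of IFN-γ induction, at 0.54, the repressor gene *Prdm1* at 0.46, and *Ifng* itself at 0.30 (log2 fold changes, each with an adjusted p under the threshold). *Ifng* was at 946 and 918 in WT and 1121 and 1187 in Rictor-/- TFH cells. *Tbx21*, which encodes T-bet, was at 645 and 695 against 611 and 619 and did not pass, nor did *Hlx*, *Furin*, *Irf1*, *Socs1*, *Socs3*, *Cish*, *Gadd45b* and *Map3k8*. The lower genes were *Ets1*, a T cell transcription factor, at -0.44 and *Lta* at -0.24. These lists were written with earlier results of the same arrays known.

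Of 9 measured genes linked to IL-33, type 2 cytokines and regulatory T cells, 1 was higher and 8 did not pass, where 12.5% of all genes were higher. The higher gene was *Klrg1*, found on terminally differentiated effector cells, which was at 263 and 256 in WT and 718 and 695 in Rictor-/- TFH cells. *Gata3*, which drives ST2 expression in type 2 cells, was at 246 and 219 against 213 and 205 and did not pass (limma adjusted p = 0.199), nor did the cytokine genes *Il4*, *Il10* and *Il13*, and 6 of the 9 lay below the array median on all 4 arrays.

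**Figure D4:**
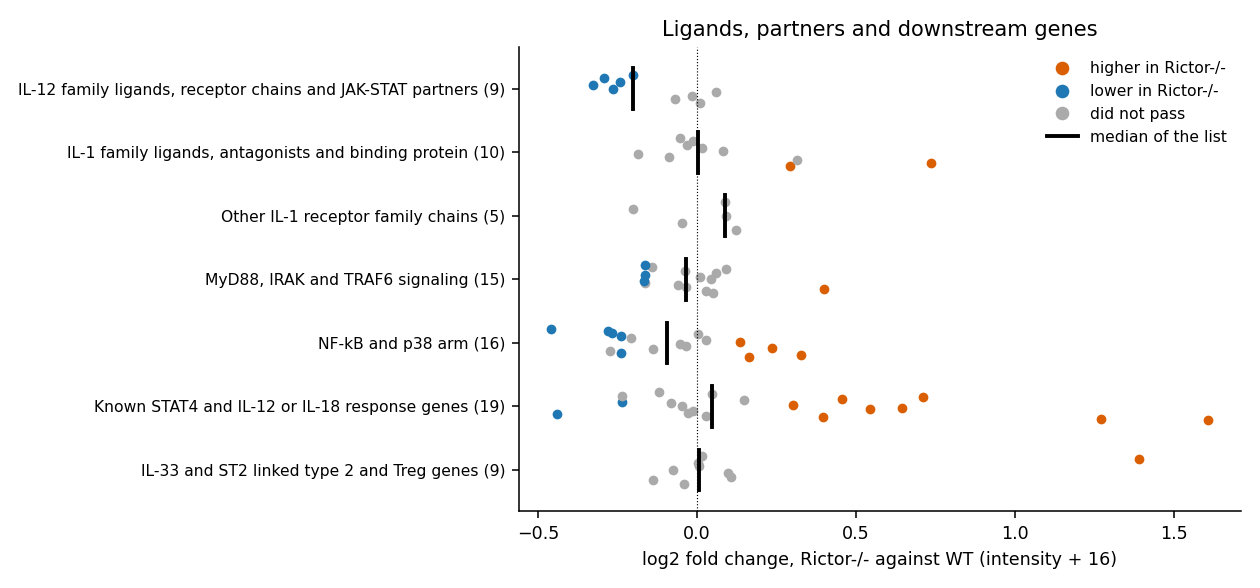
Log2 fold change (x axis, log2 of intensity + 16, Rictor-/- against WT TFH cells) of each measured gene of the 7 pathway lists, 1 row per list with the number of measured genes in brackets. Orange points were higher, blue points lower and grey points did not pass, and the black bars are the medians, which run from -0.20 for the IL-12 family and JAK-STAT list to 0.09 for the other IL-1 receptor chains.

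The profiles nearest to those of *Irak3*, *Il1r2* and *Il18rap* were sought among 10713 genes above the array median, by Euclidean distance between log2 values over the 4 arrays after each gene's mean was taken away. Nearest to *Irak3* were *AA467197*, the chemokine gene *Ccl4* and *Apobec2*, at distances of 0.166, 0.189 and 0.195. Nearest to *Il1r2* were *Fam135a*, *Tppp3* and *Dnajc15*, at 0.099, 0.119 and 0.126. *Il18rap* had *Trat1*, which encodes an adaptor of the T cell receptor complex, *Gbp3*, an interferon-induced GTPase gene, and *Rom1*, at 0.0194, 0.0341 and 0.0406. With 4 arrays in 2 groups such nearness says little more than that the genes differed by a like amount.

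Cells other than TFH cells express several of these genes, *Irak3* and *Il1r2* in monocytes, macrophages and neutrophils and *Il18rap* in NK cells. In RNA from pooled cells, fewer cells of a type and less RNA per cell cannot be told apart. Beside the marker counts that follow, 12.5% of all genes were higher by limma and 7.18% lower. Of 12 measured monocyte and macrophage markers, 3 were higher (*Ccr2*, *Lyz2* and *Itgam*) and 9 did not pass, and the summed intensity of the list was 3106 to 3109.8 in WT and 3349.98 to 3444 in Rictor-/- TFH cells. Most of that sum was *Ctss*, at 2404 and 2394 in WT and 2398 and 2276 in Rictor-/- TFH cells, which did not pass, so the sum says little about the dimmer markers. *Lyz2* was at 58.1 and 54.7 in WT and 113 and 102 in Rictor-/- TFH cells, while the macrophage receptor gene *Csf1r* was at 28.3 and 25.6 against 36.4 and 30.8 and did not pass, nor did *Fcgr1*, and *Cd14* and *Ms4a7* lay below the median on all 4 arrays. Of 9 neutrophil markers, 1 was higher (*S100a8*, at 21.7 and 23.4 against 33.8 and 29.8), 8 did not pass (*Camp*, *Csf3r*, *Ngp* and *S100a9* among them) and 5 lay below the median on all arrays, with summed intensities of 139.9 to 147 and 154 to 161. Of 7 dendritic cell markers, 2 were higher, *Itgax* at 54.4 and 45.6 against 145 and 142 and *H2-Aa* at 30.6 and 29.8 against 57.9 and 70.7, while *Zbtb46*, *Flt3*, *Xcr1*, *Siglech* and *Cd209a* did not pass (summed intensities of 161 to 173 and 290.4 to 301).

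The same shares of all genes, 12.5% higher and 7.18% lower, stand beside the next lists. Of 7 NK markers, 4 were higher and 3 did not pass, with summed intensities of 2854 to 3054 in WT and 5430.5 to 5766 in Rictor-/- TFH cells. Most of that sum was *Nkg7* and *Gzma*, so it says little about the dimmer markers. The higher genes were *Gzma* at 359 and 381 against 1998 and 1823, *Nkg7* at 2602 and 2385 against 3626 and 3487, *Klre1* at 21.6 and 20.6 against 54.6 and 42.1, and *Tyrobp* at 26.9 and 20.5 against 36.2 and 36.9. *Ncr1*, *Klra8* and *Fcer1g* did not pass, and the first pair of these lay below the median on all 4 arrays. Of 9 mast cell and basophil markers, 1 was higher (*Hdc*), 8 did not pass (*Gata2*, *Cpa3*, *Cma1* and *Tpsab1* among them) and 7 lay below the median on all arrays, with summed intensities of 117 to 119.987 and 123 to 133. Of 7 regulatory T cell markers, 3 were higher (*Tnfrsf18*, *Il2ra* and *Tnfrsf4*), 1 was lower (*Ikzf2*) and 3 did not pass (*Ctla4*, *Itgae* and *Foxp3*), with summed intensities of 3533 to 3564 and 3454 to 3484. *Foxp3*, which defines these cells, lay below the median on all 4 arrays. Of 7 B cell markers, 2 were higher (*Cd79b* and *Pax5*) and 5 did not pass (*Ms4a1*, *Cd79a* and *Fcer2a* among them), with summed intensities of 80.3 to 83.3 and 95.3 to 102. Of 11 T cell and TFH markers, 1 was higher (*Cd2*), 7 were lower (*Bcl6*, *Il21*, *Cxcr5*, *Pdcd1*, *Cd28*, *Cd3e* and *Cd4*) and 3 did not pass, with summed intensities of 19245 to 19685 and 18228 to 18428. No marker list was made for TH1 cells or CD8 T cells. The part of any of these cells in the changes of *Irak3*, *Il1r2*, *Il18rap* and *Stat4* was not tested.

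The calls of *Irak3*, *Il1r2*, *Il18rap* and *Stat4* were each made in 13 of 14 alternative settings, all but the methods' t-test after adjustment. That of *Il12rb2* was lost in 6 of the 13 settings that tested it. Without any single array these 4 remained called, with log2 fold changes of at least 1.01 for *Il1r2* and at least 0.28 for *Stat4*.

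**Figure D5:**
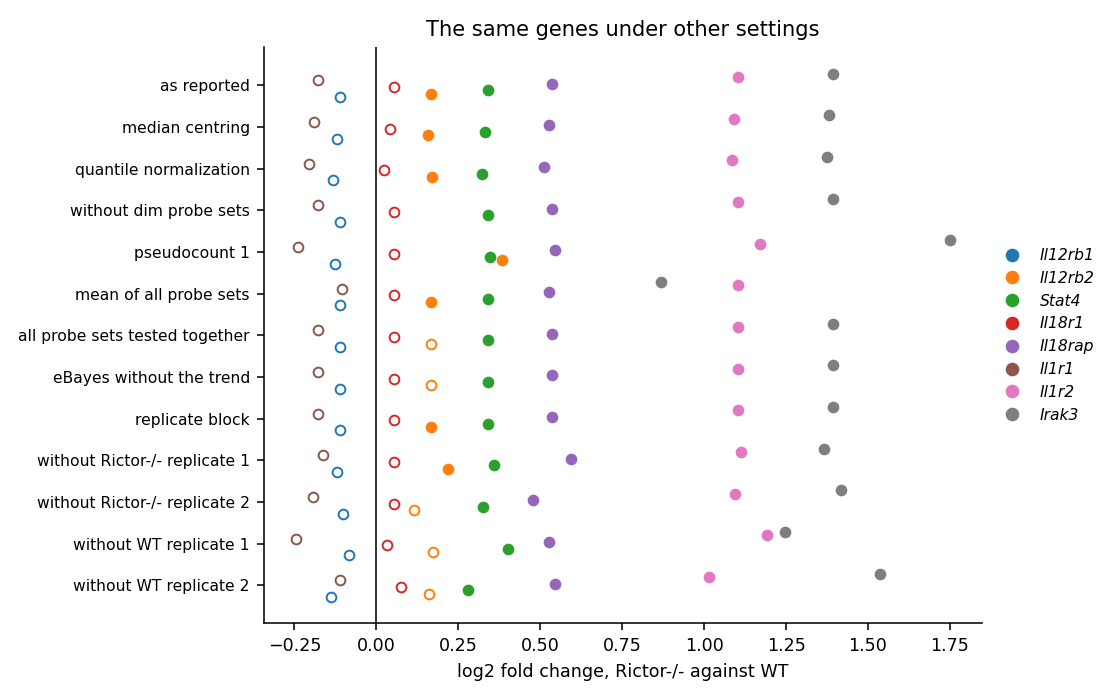
Log2 fold change (x axis, Rictor-/- against WT TFH cells) of the 8 genes in each setting fitted with limma (rows, the methods' t-test not drawn), where filled points passed the threshold and open ones did not. *Irak3* (grey) spreads from 0.87 to 1.75 and *Il12rb2* (orange) turns open in 5 of these rows, while *Il1r2* (pink) lies between 1.01 and 1.19.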

How the data were processed

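The authors had total RNA of sorted TFH cells labelled and hybridised to 1-colour Affymetrix mouse arrays by a company. The deposited values are linear intensities of 45037 probe sets on 4 arrays. The submitters' processing notes name MAS5 and RMA with no version, and the sources used here do not tell which of them made the values, nor a genome build. Array medians lay between 20.0 and 20.4. In the table, 34945 probe sets had 1 symbol in the platform annotation, 932 had several and 9160 had none, and only the first were used. Array number limits the precision.

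Intensities were taken to log2(intensity + 16), which understates the fold change of dim genes, and no dim probe set was left out. For each of 18193 genes the probe set with the highest mean log2 value was kept. The comparison used limma 3.58.1 under R 4.3.3 (lmFit, then eBayes with a trend, two-sided), Benjamini-Hochberg adjustment over all genes and a threshold of 0.05. The steps were tested on simulated data. The methods' t-test (unpaired, one-tailed) was run as an alternative, with the tail taken in each gene's observed direction. At the same threshold it is therefore more lenient than a two-sided test. Other alternatives were median centring, quantile normalization, a filter on dim probe sets, a pseudocount of 1 and the mean of a gene's probe sets. Further ones were all probe sets together, eBayes without the trend, a replicate block and leaving out each array. Named were the 9 genes, up to 5 members of each list by smallest p with the list's defining genes, the 3 nearest profiles of the 3 largest changes, and the chromosome neighbours. Other list genes named, and the within-array balances, were picked with their values in view. The genes and lists were chosen with earlier results of these data known.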

Additional observations from a re-analysis of the deposited data

How the results depend on the processing

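With the replicate number as a block, 5 of the 8 genes were higher and 0 lower, as without it. The numbers of the 2 groups share only a label, and the deviations of the replicates numbered 1 correlated at -0.07 between the groups across genes. By the methods' t-test without adjustment 5 were higher and 1 lower (*Il12rb1*), against 17.3% and 12.3% of all genes. Its tail followed each gene's observed direction, so these counts are more lenient than those of a two-sided test. After adjustment 0 were higher and 0 lower, with 3 of all 18193 genes higher and 3 lower. Leaving out each array in turn gave 4 to 5 genes higher and 0 lower, while the share of all genes that were higher ran from 5.12% (without WT replicate 2) and 5.52% (without WT replicate 1) to 10.9%. The call of *Il12rb2* was also lost when all probe sets were tested together (limma adjusted p = 0.0555) and without the trend (limma adjusted p = 0.0835), and the gene was not tested where dim probe sets were left out. The causes were not tested. No log2 fold change of the 8 genes changed sign under any of these settings.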
